A study of Drosophila melanogaster with 9 samples.

Results

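Lipocalins, the lipophorin precursor apolpp, its loading protein Mtp and the lipophorin receptors make up a small set of genes that carry lipids between cells and take them up. The 7 genes described here were chosen by name with earlier results of these data known, so counts of calls among them are descriptive and test no enrichment. They are the lipocalins *GLaz* (NCBI Gene 36447), *NLaz* (33324) and *Karl* (32131), the lipoprotein genes *apolpp* (43827) and *Mtp* (35362), and the receptor genes *LpR1* (2768687) and *LpR2* (43105). They were read by 9 of the 18769 probe sets of the Affymetrix *Drosophila* array that are not controls, *Karl* and *LpR1* having 2 each, and they are 7 of the 11983 genes that a probe set names singly.

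The arrays measured RNA of the whole larval central nervous system (CNS) in 3 groups of 3 arrays. In the first group the glial driver *repoGal4* expressed UAS-*Htl*[ACT], an activated FGF receptor, and in the second it expressed UAS-*InR*, the insulin receptor. Control larvae carried *repoGal4* over a wild type chromosome, so all 3 groups hold the driver, and its expression in glia as a class limits what the groups can say of any one glial type. Each sample pooled the CNS of 10 to 15 larvae of the third instar, taken at the wandering stage and reared at 25 °C, and the sources used here do not state whether the triplicates were separate dissections, so the p-values measure only the spread between these samples. The published study set each overexpression against control tissue to find genes expressed in glia.

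Lipocalins are small secreted or membrane-attached proteins that bind hydrophobic molecules in a barrel-shaped pocket. GLaz and NLaz, the glial and the neuronal Lazarillo, are named for the cells in which they were first described and are relatives of vertebrate apolipoprotein D, which protects against oxidative stress. Insect lipophorin is the main lipoprotein of the hemolymph, is made largely in the fat body and delivers lipids to tissues, the brain included, where receptors of the low density lipoprotein (LDL) receptor family bind it.

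Before the members, the arrays as a whole are described briefly. Arrays of one group correlated at r = 0.943 to 0.951 over log2 signals, and arrays of different groups at 0.930 to 0.946. The *htl* probe set read 2345, 1899 and 1677 in Htl[ACT] tissue, against 271 to 342 in control tissue. The *InR* probe set read 976, 799 and 787 in tissue labelled InR, against 1192, 966 and 852 in control tissue, so it was not higher there. Whether its probes lie in the transgene is not given in the sources used here, and "InR tissue" below means the arrays so labelled. The glial and neuronal markers of a CNS were present. The signals of 5 pan-glial markers summed to 41188 to 46227 in Htl[ACT] tissue, 20315 to 22454 in InR tissue and 16605 to 18154 in control tissue. Of these, *bnb* alone read 17685 to 20199 in Htl[ACT] tissue. *Gs2* did not share the order of the sum, at 3040 to 7295 in Htl[ACT] and 5281 to 7893 in control tissue. The sums of 6 neuronal markers were 6338 to 8342 in Htl[ACT], 9469 to 10480 in InR and 13346 to 14119 in control tissue. Summed signals of 3 fat body marker genes stood high in 3 single arrays, at 18738 in InR 2, 9876 in InR 3 and 6944 in control 2, against 585 to 1011 in the other 6.

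In Htl[ACT] tissue, *GLaz*, *apolpp* and *Mtp* were each more than 2-fold above control with no overlap between the groups, *NLaz* was higher on average but varied widely between arrays, and *LpR1* was lower. In InR tissue, *NLaz*, *LpR2* and *Mtp* passed the threshold, and *GLaz* did not. A gene was called where it changed at least 1.5-fold and had an adjusted p (limma, Benjamini-Hochberg) no greater than 0.05 among the 8552 features in the brighter 50% of the array. A feature is 1 probe set for a singly named gene, or any probe set that names several genes or none. Of the 8552, 7366 name 1 gene, and counts and shares of "genes" over the array below are of features. Of the 7 members 6 were bright enough to be tested, and *Karl* was not. The tested members called higher in Htl[ACT] against control tissue numbered 4, in a comparison in which 13.0% of all tested genes were called higher, and the single member called lower stood beside 19.2% of all tested genes. Of the same 6 genes, 4 did not overlap between Htl[ACT] and control arrays, as 63.8% of all tested genes did not, so the lack of overlap alone says little. Because these are bulk samples, more cells of a type and more RNA per cell cannot be told apart in any of these values.

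**Figure D1:**
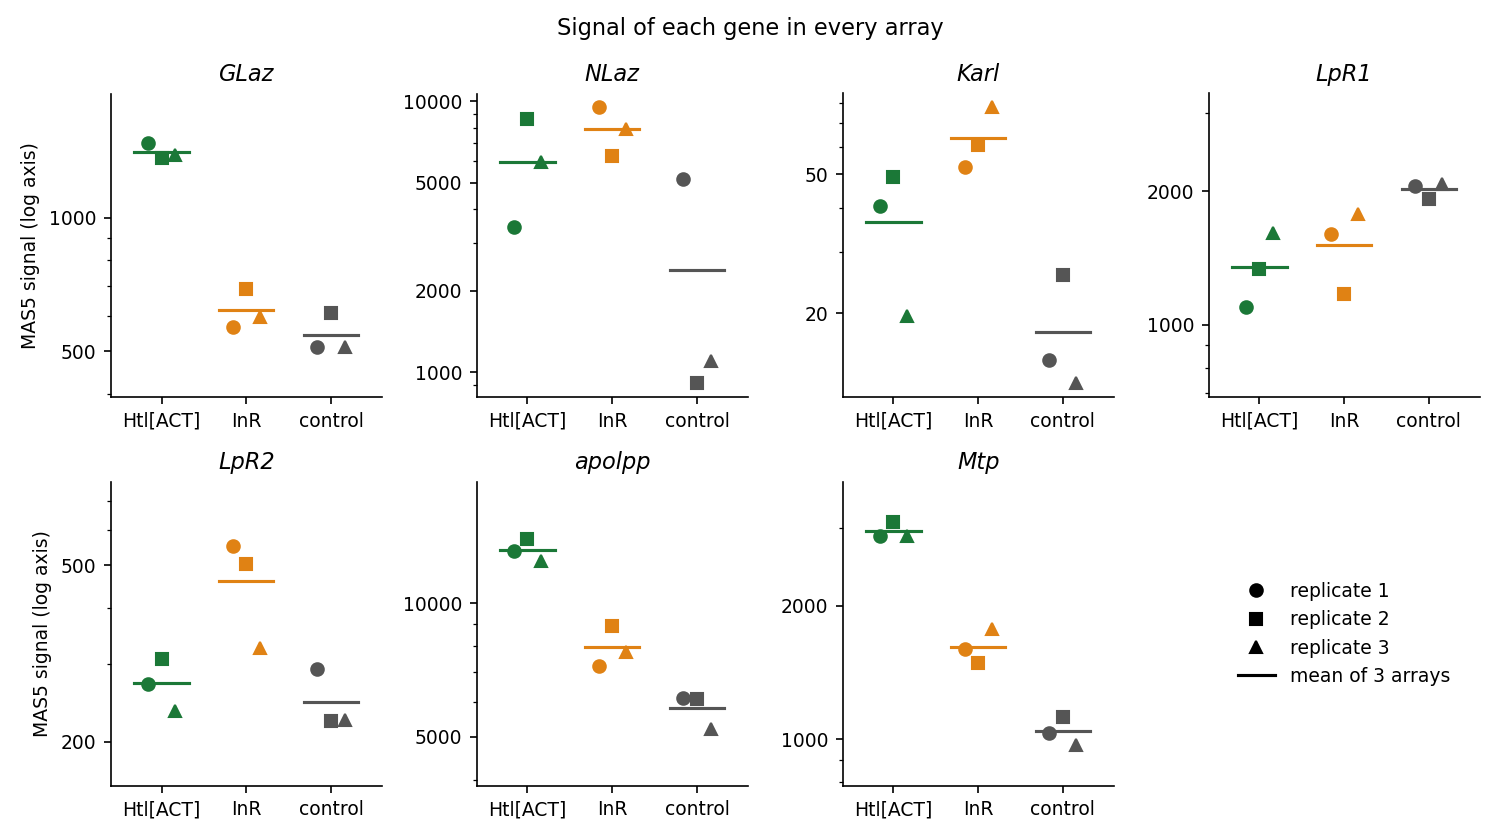
Microarray Suite 5 (MAS5) signal of each of the 7 genes in every array (log axis, arbitrary units), with points for arrays 1 to 3 of Htl[ACT], InR and control tissue and a line at the mean of the 3. *GLaz*, *apolpp* and *Mtp* separate Htl[ACT] arrays from all others, while for *NLaz* the control 1 array, at 5163, lies among the overexpression arrays.

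*GLaz*, the glial lipocalin, had signals of 1470, 1363 and 1386 in Htl[ACT] tissue, 566, 689 and 598 in InR tissue, and 511, 610 and 510 in control tissue. All 3 Htl[ACT] arrays lay above all 6 others. InR and control arrays overlapped, though each InR array lay above the control array of the same number. Its mean was 1406 ± 56.1 in Htl[ACT] tissue and 544 ± 57.3 in control tissue (SD, n = 3 each). The log2 fold change was 1.38 ± 0.10 (SE, 95% interval 1.14 to 1.61, limma, adjusted p = 3.74e-05). In InR tissue the mean was 618 ± 64.0 (SD, n = 3), and the log2 fold change against control of 0.19 did not pass (95% interval -0.05 to 0.42, limma, adjusted p = 0.195, or 0.168 with the replicate number as a block). The direct comparison of Htl[ACT] with InR tissue gave a log2 fold change of 1.19 (95% interval 0.95 to 1.43, limma, adjusted p = 0.000194). Beside this, summed signals of the 3 cortex glial marker genes were 26649 to 30897 in Htl[ACT] tissue, 6639 to 7521 in InR tissue and 5624 to 6556 in control tissue, so they too were high in Htl[ACT] arrays, and the part of these cells in the *GLaz* result was not tested.

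*NLaz*, the neuronal lipocalin, had signals of 3426, 8578 and 5986 in Htl[ACT] tissue, 9511, 6296 and 7897 in InR tissue, and 5163, 909 and 1098 in control tissue. Control 1 stood well above the other 2 control arrays and above Htl[ACT] 1, so Htl[ACT] and control arrays overlapped, whereas all InR arrays lay above all control arrays. The highest array was 5.68 times the lowest within the control group, against 1.20 times for *GLaz*. The log2 fold change was 1.70 ± 0.63 in Htl[ACT] against control tissue (SE, 95% interval 0.24 to 3.16, limma, adjusted p = 0.0492) and 2.17 ± 0.63 in InR against control tissue (95% interval 0.71 to 3.63, limma, adjusted p = 0.0296). Htl[ACT] and InR tissue differed by -0.48, with a 95% interval of -1.94 to 0.98, which leaves room for a large difference either way (limma, adjusted p = 0.620).

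Both *NLaz* calls depended on single arrays. Without control 1 the log2 fold change was 2.49 in Htl[ACT] tissue and 2.96 in InR tissue (limma, adjusted p = 0.00168 and 0.00186). In Htl[ACT] against control tissue the call was lost in limma without Htl[ACT] 2 (1.39, adjusted p = 0.139), Htl[ACT] 3 (1.65, 0.107), control 2 (1.24, 0.151) or control 3 (1.37, 0.144), and without any one InR array (adjusted p of 0.0651 to 0.0675). In InR against control tissue it was lost in limma without InR 1 (2.03, adjusted p = 0.0800), InR 2 (2.33, 0.0592), InR 3 (2.16, 0.0710), control 2 (1.71, 0.0903) or control 3 (1.85, 0.0918). All these fits kept *NLaz* higher in the overexpression tissue, so its direction was kept and its side of the threshold was not.

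The marker sums of the controls are given beside their *NLaz* signals. Control 1, with the high *NLaz* signal, had a fat body sum of 660, and control 2, with the lowest *NLaz* signal of all 9 arrays, had a sum of 6944. Surface glial marker sums, over 3 genes, were 18922 to 22376 in Htl[ACT] tissue, 25972 to 26857 in InR tissue and 5448 to 7264 in control tissue. The groups stood in the same order as their *NLaz* means, while control 1, 2 and 3 had surface glial sums of 5885, 5448 and 7264. The part of surface glial RNA in the *NLaz* result was not tested. Neuronal marker sums were 13791, 13346 and 14119 in control 1, 2 and 3, beside *NLaz* signals of 5163, 909 and 1098. The part of fat body or neuronal RNA in the *NLaz* values was not tested. Control 1 was at least 2-fold above both other controls for 59 of the 8552 tested genes (0.690%), and control 2 was so for 77 (0.900%). Of the 59, *NLaz* was 4.70-fold above the higher of the other controls. Of those that name a single gene, 4, chosen after their values were seen, exceeded that. These were *CG12607* (9.75-fold), the drosomycin-like gene *Drsl5* (5.26-fold), *CG34136* (5.14-fold) and the heat shock gene *Hsp68* (5.10-fold). *CG12607* read 33.1 in control 1 but 3.27 and 3.39 in control 2 and control 3. Those readings lay below the 25th percentiles of these 2 arrays (8.32 and 6.04), so the size of its ratio means little. Among genes named singly, the next below *NLaz* were *CG16700* (4.59-fold), *Eip78C* (3.15-fold), *CG5171* (3.15-fold), *firl* (2.72-fold), *Cipc* (2.67-fold) and *ImpE2* (2.67-fold). *Eip78C* and *ImpE2* are ecdysone-induced genes. Whether any of these genes bear on the *NLaz* value was not tested.

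The 2 Lazarillo genes were then compared with each other by the change of one minus the change of the other, which needs no comparison of levels between probe sets. The log2 change of *GLaz* minus that of *NLaz* was -0.32 in Htl[ACT] against control tissue, -1.99 in InR against control tissue and 1.67 in Htl[ACT] against InR tissue. Two-sided exact permutation tests over 3 against 3 arrays, which cannot go below 0.1, gave p = 0.8, 0.2 and 0.1 for these comparisons (adjusted over the 3 tests, 0.8, 0.3 and 0.3). None of these differences passed 0.05, which 3 against 3 arrays cannot reach in this test. The first of these values changed sign, to 0.01 without Htl[ACT] 2 and 0.23 without control 2. The other comparisons kept their sign without any single array, at -2.82 to -1.44 and 1.28 to 1.995.

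**Figure D2:**
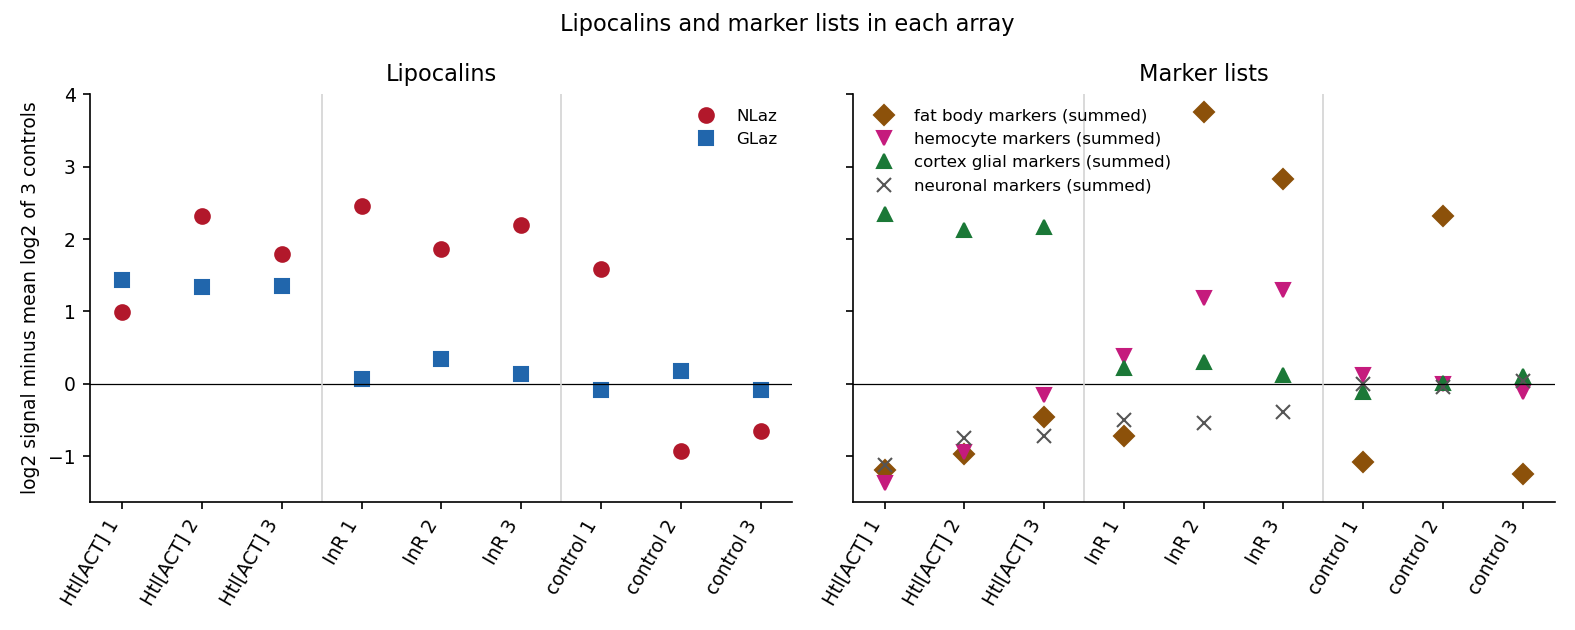
Left, log2 signal of *NLaz* and *GLaz* in each array minus the mean log2 signal of the 3 control arrays; right, the same for the summed signals of fat body, hemocyte, cortex glial and neuronal marker genes. *GLaz* and the cortex glial sum are high in the 3 Htl[ACT] arrays alone, *NLaz* is high in all 6 overexpression arrays and in control 1, and the fat body sum is high in InR 2, InR 3 and control 2.

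*Karl*, the third lipocalin, was dim. Its brighter probe set read 40.5, 49.0 and 19.6 in Htl[ACT] tissue, 52.6, 60.6 and 77.8 in InR tissue, and 14.6, 25.8 and 12.6 in control tissue. All InR arrays lay above all other arrays, and Htl[ACT] and control arrays overlapped. The control readings lay below the medians of the arrays, which were 31.5 to 41.8, and the gene fell below the brightness needed for the test. Its values therefore come from a limma fit of all 17105 features without that filter. There the log2 fold change was 1.90 ± 0.41 in InR against control tissue (SE, 95% interval 0.93 to 2.87, limma, adjusted p = 0.0363), in a fit that called 4.22% of all genes higher, and 1.01 ± 0.41 in Htl[ACT] against control tissue (95% interval 0.04 to 1.98, limma, adjusted p = 0.140).

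The *Karl* call in InR tissue was lost with the replicate number as a block (limma, adjusted p = 0.0633), without Htl[ACT] 1 (limma, adjusted p = 0.0548), and without InR 1, InR 2 or InR 3 (limma, adjusted p = 0.0796, 0.105 and 0.110). Median centring (limma, adjusted p = 0.0581) and the permutation method SAM (q = 0.126) ended it as well, and in all it was lost in 10 of 25 alternatives. In Htl[ACT] against control tissue a call appeared only without Htl[ACT] 3 (1.41, limma, adjusted p = 0.0412). Htl[ACT] and InR tissue differed by -0.89 with no call (limma, adjusted p = 0.292), although all Htl[ACT] arrays lay below all InR arrays. Summed signals of 6 hemocyte marker genes, 3 of them bright enough to test, were also highest in InR tissue, at 710 to 1333, against 210 to 487 in Htl[ACT] tissue and 502 to 590 in control tissue, and their part in the *Karl* value was not tested.

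*apolpp* encodes the apolipophorin precursor that is cut into the protein parts of lipophorin. Its signals were 13112, 13961 and 12479 in Htl[ACT] tissue, 7242, 8874 and 7789 in InR tissue, and 6132, 6072 and 5222 in control tissue. The 3 groups did not overlap at all, with Htl[ACT] arrays highest and control arrays lowest. The log2 fold change was 1.18 ± 0.10 in Htl[ACT] against control tissue (SE, limma, adjusted p = 6.39e-05) and 0.73 in Htl[ACT] against InR tissue (limma, adjusted p = 0.00211). In InR against control tissue it was 0.45 ± 0.10, a 1.37-fold difference that passed the adjusted p but not the fold limit, so it was not called (limma, adjusted p = 0.0111). Fat body is the best known source of the transcript, and the fat body sums were 609 to 1011 in the Htl[ACT] arrays. Among the arrays with high fat body sums, InR 2 and InR 3 had *apolpp* signals of 8874 and 7789, above the 7242 of InR 1, and control 2 had 6072, between the 6132 of control 1 and the 5222 of control 3. The part of fat body RNA in the *apolpp* values was not tested.

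*Mtp* encodes the microsomal triglyceride transfer protein that loads lipid onto the apolipophorin chain. It had signals of 2882, 3088 and 2876 in Htl[ACT] tissue, 1598, 1485 and 1772 in InR tissue, and 1031, 1125 and 969 in control tissue. As with *apolpp*, no groups overlapped and the order was Htl[ACT], InR, control from high to low. The pan-glial marker sums given above ran in the same order without overlap, but the single markers were split. Of the 5, 4 were called higher in Htl[ACT] against control tissue, beside 13.0% of all tested genes. Only 1, *repo*, was called higher in InR against control tissue, beside 9.24%. *Gs2* differed by -0.26 and -0.06 in these comparisons without a call. The part of these markers in the *apolpp* and *Mtp* values was not tested. The *Mtp* log2 fold change was 1.503 ± 0.09 in Htl[ACT] against control tissue (SE, limma, adjusted p = 1.42e-05), 0.63 ± 0.09 in InR against control tissue (limma, adjusted p = 0.00158) and 0.87 in Htl[ACT] against InR tissue (limma, adjusted p = 0.000503). The InR call lay just above the fold limit, at 1.55-fold, and fell below it without InR 3 (0.57) or control 3 (0.58) and with each array centred on its median (0.53).

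*LpR1* and *LpR2* are neighbouring genes of the LDL receptor family, per the RefSeq gene table of Release 6 plus ISO1 MT, and their products are receptors by which cells take up lipophorin lipids. *LpR1* had signals of 1096, 1337 and 1607 in Htl[ACT] tissue, 1599, 1170 and 1774 in InR tissue, and 2053, 1925 and 2079 in control tissue. All 6 overexpression arrays lay below all 3 control arrays, and Htl[ACT] and InR arrays overlapped. The log2 fold change was -0.60 ± 0.18 in Htl[ACT] against control tissue (SE, 95% interval -1.01 to -0.19, limma, adjusted p = 0.0210) and -0.44 ± 0.18 in InR against control tissue, which was not called (limma, adjusted p = 0.0923). Htl[ACT] and InR tissue differed by -0.17 without a call (limma, adjusted p = 0.540), and the sign turned to 0.11 with each array centred on its median.

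The *LpR1* call was small, and it was lost without Htl[ACT] 1 (-0.46, limma, adjusted p = 0.0672), control 1 (-0.59, 0.0542) or control 3 (-0.58, 0.0576). Quantile normalization (-0.58, under the fold limit) and median centring (-0.43, limma, adjusted p = 0.151) ended it as well. So did the limma fit without the brightness filter (adjusted p = 0.0769) and the stricter false discovery rate of the methods applied to limma. In all the call was lost in 7 of 25 alternatives, and in 1 more, averaging the 2 *LpR1* probe sets, the value turned to 0.23. Neuronal marker sums were also lower in Htl[ACT] than in control tissue, as given above, and their part in the *LpR1* value was not tested. A second *LpR1* probe set read 0.709 to 13.4 in all 9 arrays, among the dimmest readings of the arrays, and no level is read from it.

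*LpR2* had signals of 270, 308 and 234 in Htl[ACT] tissue, 552, 505 and 326 in InR tissue, and 292, 223 and 225 in control tissue. All InR arrays lay above all other arrays, though InR 3 only narrowly, and Htl[ACT] and control arrays overlapped. The log2 fold change was 0.88 ± 0.21 in InR against control tissue (SE, 95% interval 0.39 to 1.37, limma, adjusted p = 0.0144), 0.14 ± 0.21 in Htl[ACT] against control tissue (95% interval -0.35 to 0.63, limma, adjusted p = 0.593) and -0.74 in Htl[ACT] against InR tissue (limma, adjusted p = 0.0369). Without InR 2 the InR value was 0.80 and the call was lost (limma, adjusted p = 0.0511), and without control 2 and InR 2 together it was 0.73 (limma, adjusted p = 0.126). The call was also lost in the limma fit of all genes without the brightness filter (adjusted p = 0.0623) and in SAM at the strict false discovery rate of the methods, and in all it was lost in 6 of 25 alternatives. The hemocyte marker sums given above were also higher in all InR than in all control arrays, and their part in the *LpR2* value was not tested. The direct difference lost its call in limma without Htl[ACT] 1 (-0.74, adjusted p = 0.0884), Htl[ACT] 3 (-0.64, 0.101), InR 1 (-0.59, 0.114), InR 2 (-0.66, 0.107), control 2 (-0.74, 0.0527) or control 3 (-0.74, 0.0536), and likewise with quantile normalization (-0.62, 0.0742) and with median centring (-0.46, 0.123).

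**Figure D3:**
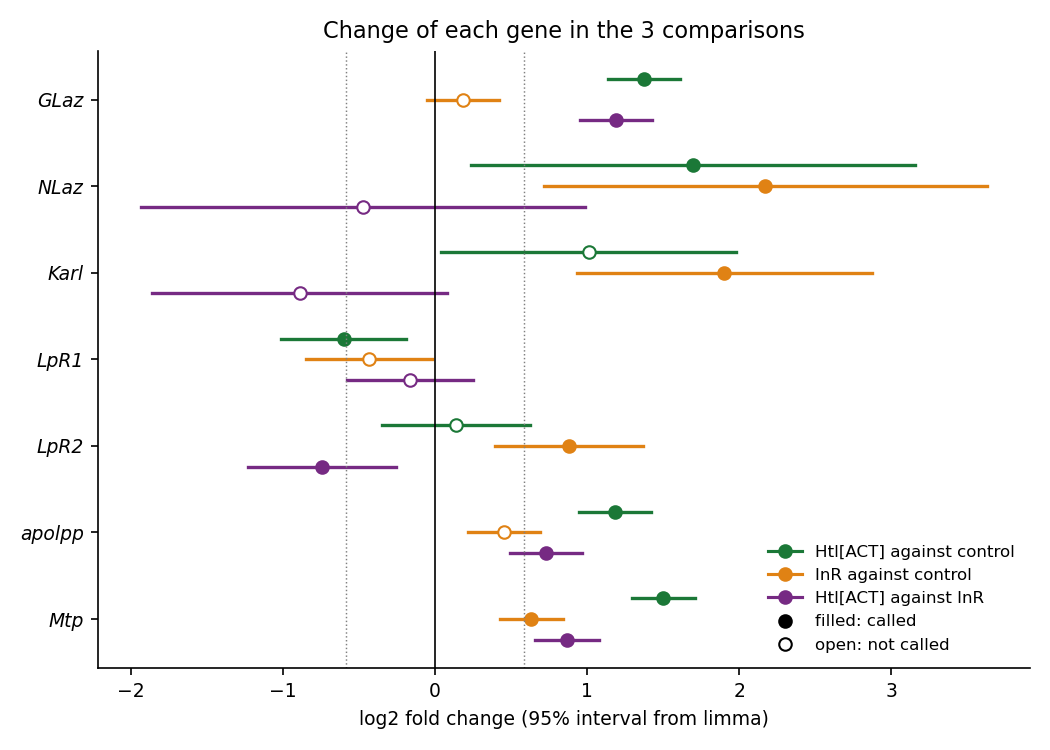
Log2 fold change of each gene with its 95% interval from limma in the 3 comparisons, filled where called, with dotted lines at the 1.5-fold limit; *Karl* is from the fit without the brightness filter. *GLaz*, *apolpp* and *Mtp* have short intervals well above the limit in Htl[ACT] against control tissue, at 1.38, 1.18 and 1.503, and the *NLaz* interval there runs over 0.24 to 3.16.

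Read by comparison, the tested members called higher in InR against control tissue numbered 3 (*NLaz*, *LpR2* and *Mtp*), where 9.24% of all tested genes were called higher. No tested member was called lower there, where 6.58% of all tested genes were, and 5 of the 6 did not overlap between the groups, beside 52.6% of all tested genes. In Htl[ACT] against InR tissue 3 members were called higher (*GLaz*, *apolpp* and *Mtp*) beside 5.43% of all tested genes, and *LpR2* was called lower beside 6.45%, with 4 of the 6 not overlapping beside 41.8%. Over the 6 tested members the median change on the log2 scale was 1.28 in Htl[ACT] against control tissue, where it was -0.15 over all tested genes. In InR against control tissue these medians were 0.54 and -0.09, and in Htl[ACT] against InR tissue 0.28 and -0.08. The comparisons share arrays, so these are side by side values and not independent ones.

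The genes whose log2 signal followed a member most closely over the 9 arrays are given as a description, since group differences and shared arrays enter every such correlation. *GLaz* was followed by *Hexo2*, a hexosaminidase gene (r = 0.995), and *Aldh7A1*, an aldehyde dehydrogenase gene (r = 0.992). *Mtp* was followed by *CG12012* (r = 0.997), *Tudor-SN* (r = 0.994) and *sowah* (r = 0.994), and *apolpp* by *Pss*, a phosphatidylserine synthase gene (r = 0.989), *Fkbp14* (r = 0.989) and *Spn28Dc* (r = 0.986). *NLaz* was followed less closely, by *CG10413* (r = 0.970), *CG8031* (r = 0.952) and *CG4586* (r = 0.948). *LpR1* was followed by *PolrMT* (r = 0.969) and *ZAP3* (r = 0.964), and *LpR2* by *mthl9* (r = 0.984) and *CG16953* (r = 0.953). No member was among the 3 closest genes of another member.

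Other genes that move or store lipid did not change as one. Of the 2 other large lipid transfer protein genes, *cv-d*, a relative of vitellogenin, was higher by 1.31 on the log2 scale in both Htl[ACT] and InR against control tissue (limma, adjusted p = 2.52e-05 and 4.72e-05). *Apoltp*, which encodes the lipid transfer particle that moves lipid onto lipophorin, differed by -1.01 in Htl[ACT] against control tissue (limma, adjusted p = 0.0116) and by -0.17 without a call in InR against control tissue. Its signals of 89.0, 180 and 167 in Htl[ACT] arrays lay below the 283, 307 and 251 in control arrays, a direction opposite to that of *apolpp* and *Mtp* in the same tissue. Of 6 listed genes of the LDL receptor family and its maturation, 2 had a probe set of their own and 4 were not analysed here. Of these 2 the yolk protein receptor gene *yl* was too dim to test, and the chaperone gene *boca* was not called in any comparison.

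Of the CD36 family, scavenger receptors that bind lipids and lipoproteins, 4 genes were tested and 2 were called higher in both overexpression tissues, beside 13.0% of all tested genes in Htl[ACT] and 9.24% in InR against control tissue. *pes* had a log2 fold change of 1.37 in Htl[ACT] and 1.80 in InR against control tissue (limma, adjusted p = 0.00214 and 0.00145), and *santa-maria*, a carotenoid uptake gene, had 1.37 and 0.67 (limma, adjusted p = 0.000242 and 0.0131). *emp* was called only in the direct comparison, with a log2 fold change of -0.61 in Htl[ACT] against InR tissue (limma, adjusted p = 0.00170). The median over the 4 tested genes was 0.9995 in Htl[ACT] and 0.61 in InR against control tissue.

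Among 6 tested genes for lipid storage, lipases and fatty acid carriers, 4 were called higher and 1 lower in Htl[ACT] against control tissue, beside 13.0% and 19.2% of all tested genes. In InR against control tissue 1 was called higher, beside 9.24% of all tested genes. *Lip4*, a lipase gene, and *Lsd-2*, which encodes a lipid droplet coat protein, had log2 fold changes of 1.96 and 1.39 in Htl[ACT] tissue (limma, adjusted p = 1.49e-05 and 8.17e-06) and of 0.34 and 0.36, not called, in InR tissue. *Lsd-1*, which encodes the other droplet coat protein, was higher in both, and its order was the reverse, with 0.66 in Htl[ACT] and 1.52 in InR against control tissue (limma, adjusted p = 0.0254 and 0.00133) and a direct difference of -0.85 (limma, adjusted p = 0.0212). *mdy*, the other gene called higher in Htl[ACT] tissue, had a log2 fold change of 1.16 there (limma, adjusted p = 0.0284). In InR against control tissue *mdy* differed by 1.05 without a call (limma, adjusted p = 0.0597). The triglyceride lipase gene *bmm* was the one called lower, at -0.70 in Htl[ACT] against control tissue (limma, adjusted p = 0.00231). The median over the 6 genes was 0.91 in Htl[ACT] and 0.35 in InR against control tissue. The probe set of *Pdi*, which encodes the partner subunit of Mtp, was too dim to test.

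*NLaz* is known as a target of JNK signalling and as a modulator of insulin signalling, so 3 genes of these pathways were read beside it. A further listed gene, *Thor*, had no probe set of its own and was not analysed. Transcript levels of these genes do not measure the activity of either pathway. *ImpL2*, which encodes a secreted protein that binds insulin-like peptides, was higher by 2.26 in Htl[ACT] and 0.82 in InR against control tissue (limma, adjusted p = 7.77e-06 and 0.00145). *foxO*, the transcription factor gene of the insulin pathway, was higher by 0.90 in Htl[ACT] tissue (limma, adjusted p = 0.000870) and not called in InR tissue, where it differed by 0.42. *puc*, a phosphatase gene induced by JNK, was called in neither, at -0.44 in Htl[ACT] and -0.15 in InR against control tissue. The median over these 3 genes was 0.90 in Htl[ACT] and 0.42 in InR against control tissue.

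**Figure D4:**
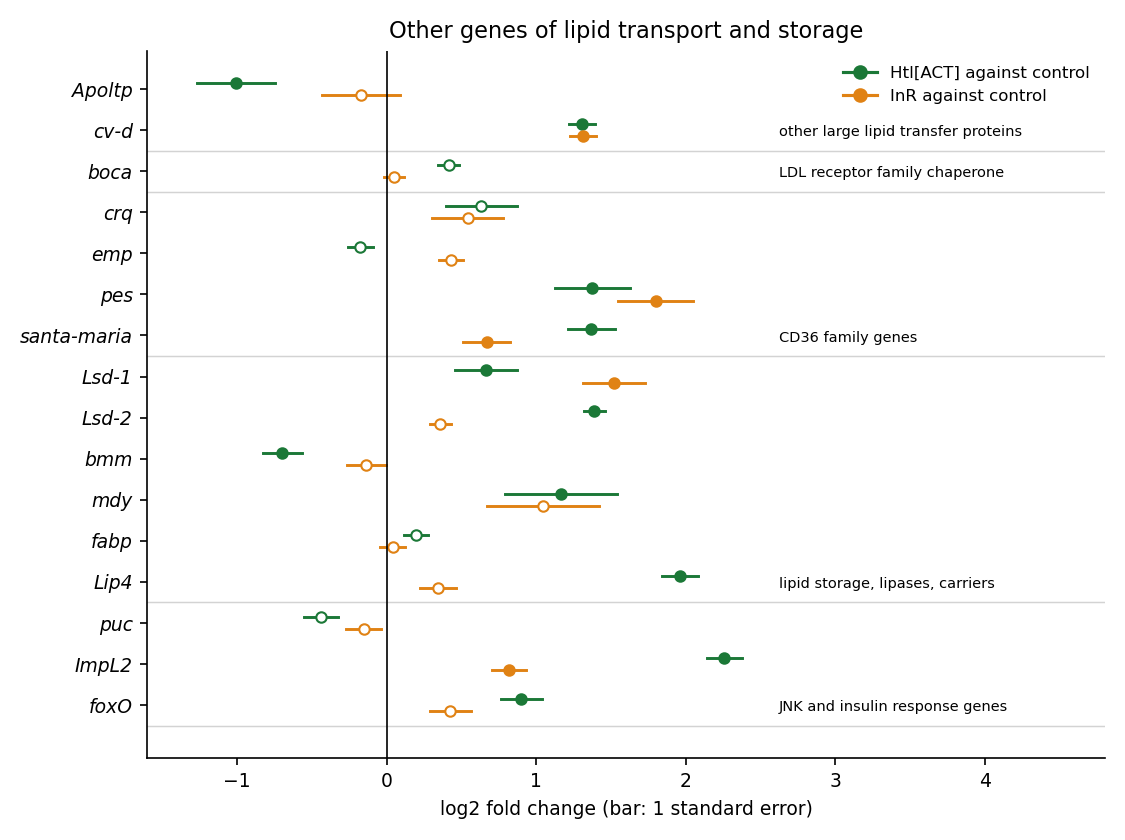
Log2 fold change of other lipid transport and storage genes, and of genes of the JNK and insulin pathways, in Htl[ACT] and InR against control tissue. Bars are 1 standard error and points are filled where called. *Apoltp* lies at -1.01 and *Lip4* at 1.96 in Htl[ACT] tissue, and *Lsd-1* lies higher in InR than in Htl[ACT] tissue.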

How the data were processed

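Whole CNS RNA (500 ng in each sample) was hybridised to 9 Affymetrix *Drosophila* Genome 2.0 arrays, 3 in each group, grouped by the sample titles. The deposited intensity values are MAS5 signals that the authors made in Affymetrix Expression Console, scaled so that the 2% trimmed mean of each array is 500; they are linear and were used as deposited. After removing 183 control probe sets, 18769 remained, of which 13647 name 1 gene, 402 several and 4720 none in the platform annotation; the RefSeq gene table used for current symbols held 13544 of those gene identifiers. The authors' detection calls were not used here.

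The brightest probe set by mean log2 signal stood for each gene, and each probe set naming several genes or none stood for itself (17105 features). The brighter 50% (8552, lowest geometric mean signal 35.2) were tested on log2 signals with limma 3.58.1 in R 4.3.3. The fit took all 9 arrays, with 6 residual degrees of freedom and Benjamini-Hochberg adjustment. Calls needed 1.5-fold and an adjusted p of 0.05. The fit was also run on simulated data with independent noise and few changed features, unlike these data, and nothing is concluded from that run. The members and gene lists were chosen with earlier results of these data known. Text names all members, up to 3 genes of a list in each comparison by size of change, and up to 3 genes closest to each member by Pearson correlation. It also names some marker genes, the lipid storage gene called lower (*bmm*), and genes high in control 1 that were chosen after their values were seen.

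Same-numbered InR and control arrays deviated together from their group means (r = 0.50, 0.37 and 0.23). For Htl[ACT] and control arrays these correlations were -0.04, -0.06 and 0.20, and for Htl[ACT] and InR arrays -0.04, -0.17 and 0.38. The sample titles give replicate numbers but state no pairing. The main fit therefore used no pairing, and the replicate number was a block only in an alternative. InR 2 and control 2 both had high fat body sums, and the part of this in the correlations was not tested. Alternatives were other scalings, filters, pseudocounts, variance models, probe set rules and thresholds, SAM in place of limma, the replicate block, and leaving out arrays singly or in pairs. The number of arrays limits the precision.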

Additional observations from a re-analysis of the deposited data

Results flagged for a closer look

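Of the 6 tested members, 4 were called in limma's direct comparison of Htl[ACT] against InR tissue. Their log2 fold changes were 1.19 for *GLaz*, 0.73 for *apolpp*, 0.87 for *Mtp* and -0.74 for *LpR2*. The first 3 were called higher, beside 5.43% of the 8552 tested genes, and *LpR2* was called lower, beside 6.45%. *GLaz*, *apolpp* and *Mtp* kept their calls in all 23 alternatives run on this comparison, while *LpR2* lost its call in 12 of the 23.

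The dimmer *Karl* probe set, used only in the alternatives that average or test all probe sets, read above its control level, at 12.9, 50.7 and 34.8 in InR tissue (mean 32.8) against 2.26, 9.60 and 5.05 in control tissue. All InR arrays were above all control arrays. The control readings lay around or below the 25th percentile of the arrays, which was 6.04 to 9.44, so no fold is read from them, and the probe set was not called when tested on its own (limma, adjusted p = 0.0863).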

How the results depend on the processing

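Of 511 comparisons of an alternative with the value reported for a member, 442 kept direction and side of the threshold, 64 lost a call, 2 gained one and 3 changed sign. *GLaz*, *apolpp* and *Mtp* kept their calls in all alternatives in Htl[ACT] against control tissue (log2 fold changes of 1.33 to 1.55, 1.02 to 1.36 and 1.45 to 1.68). *NLaz* lost its call in 17 of 25 alternatives there (adjusted p of 0.00168 to 0.181) and in 9 of 25 in InR against control tissue (0.00186 to 0.166). *LpR1* changed sign to 0.23 in Htl[ACT] against control and 0.24 in Htl[ACT] against InR tissue when its near-background probe set was averaged in, and to 0.11 in Htl[ACT] against InR tissue with median centring. The members called numbered 3 in place of 5 in Htl[ACT] against control tissue with quantile normalization, without the filter, at the stricter false discovery rate of the methods and with probe sets averaged, and 3 to 4 without single arrays. Over all genes 2532, 2640, 2183 and 2614 were called in those 4 settings, against 2751, and 2532 to 2771 without single arrays. In InR against control tissue the members called numbered 1 in place of 3 at that rate and without control 2 and InR 2 together. They numbered 1 to 4 without single arrays. All genes called there numbered 791 at that rate, 910 without that pair and 1159 to 1369 without single arrays, against 1353. Counts over all genes moved by more than 1.5 times in 3 further settings. In Htl[ACT] against control tissue they were 4837 with no fold limit and 1715 with only the brightest 5701 genes tested, against 2751. In InR against control tissue they were 3143 and 789 in these settings, against 1353, and in Htl[ACT] against InR tissue 2127 and 572, against 1016. Without InR 2 and InR 3 together they were 710 in InR against control and 514 in Htl[ACT] against InR tissue. With the replicate block the members called numbered 4, 3 and 4 in the 3 comparisons, where all genes called numbered 2799, 1401 and 1033. Beside the *Karl* call, the block ended that of *NLaz* in Htl[ACT] against control tissue (limma, adjusted p = 0.0727) and changed no other member's call. The *GLaz* change minus the *NLaz* change in Htl[ACT] against control tissue was 0.23 without control 2 and InR 2 together and -1.15 to 0.23 without single arrays.

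Scaling mattered for all genes: of genes called in Htl[ACT] against control tissue 40.4% were higher as deposited, 50.1% after quantile normalization and 59.6% after median centring, which moved the median of tested genes by 0.17, -0.11 and 0.28 in the 3 comparisons. The share was 58.4%, 58.7% and 41.5% in InR against control tissue and 45.7%, 59.3% and 80.4% in Htl[ACT] against InR tissue. The causes of these changes were not tested. With 3 arrays in each group, exact tests of a single value cannot pass 0.05, and dim genes such as *Karl* have readings near the middle of the array's own range.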
